A study of Homo sapiens with 12 samples.

Results

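The genes described here encode the proteasome: its 20S core, its 19S particle, its activators and inhibitor, and its assembly chaperones. They were taken as every gene probe of the array whose gene name begins with PSMA to PSMG followed by a number. The pattern matched 76 of 41000 gene probes, which carry 50 of 29123 gene names. Of these names, 46 belong to the proteasome classes and 4 matched by name only, namely PSMC3IP, a recombination cofactor, and the transcripts PSMA3-AS1, PSMD5-AS1 and PSMG3-AS1. After probes close to background were removed, 75 of the 76 probes and 45 of the 46 class genes were tested. The 46th, PSMA8, the testis form of an alpha subunit, was well above background on 0 of 12 arrays. The 45 genes comprise 17 of the 20S core, 17 of the 19S particle, 5 regulators and 6 assembly chaperones. Where a gene had several probes, the brightest stood for it.

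RNA was measured on 12 arrays of 1 colour, 4 for each of 3 groups. All groups were HuH-7 cells, an established line from a hepatocellular carcinoma that carries the p53 mutation Y220C, harvested after 24 h. The control cells received the solvent DMSO, and the others received SLMP53-2 at 28 µM or 42 µM, stated as 2 and 3 times its IC50. The treatment label of the higher dose reads 48 µM where the titles of the same arrays read 42 µM, and the dose is called 42 µM below. The labels call the 4 arrays of a group biological replicates of this single line, so the p-values measure the spread between replicates of 1 cell line. The purpose of the series was to list genes that differ between the compound and DMSO.

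The proteasome degrades proteins tagged with ubiquitin. Its 20S core is a barrel of alpha rings, which gate the entrance, around beta rings, of which PSMB5, PSMB6 and PSMB7 carry the proteolytic sites. The 19S particle binds the ubiquitin chain, removes it, unfolds the protein with a ring of ATPases encoded by the PSMC genes and feeds it into the core. Other caps, the PSME activators, open the core without ubiquitin. Transcription of the subunit genes is known to be raised together by NFE2L1 (NRF1) when proteasome activity is short, through antioxidant response elements in their promoters.

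Between 69.5% and 76.6% of gene spots were well above background on the DMSO arrays, 65% to 85% at 28 µM and 71.3% to 78.5% at 42 µM. Saturation was not seen among gene spots. All 8 hepatocyte markers, among them ALB and AFP, were well above background on all 12 arrays, and the leukocyte markers PTPRC and HLA-DRA on 0 of them. Of 6 leukocyte, 4 fibroblast and 3 endothelial markers, 4, 1 and 1 were above background on all arrays. Of the 45 proteasome genes, 44 were well above background on all 12 arrays, and PSMB8 on 10. The array of 28 µM replicate 4 stood apart from the other 3 of its group on the median of the 45 genes themselves. Relative to the DMSO mean that median was 0.14, against -0.19 to -0.17 on the others. Results at 28 µM are given with and without this array, and a lower median without it follows from the choice. The 12 arrays lay on 5 slides that mixed the groups.

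The promoters shown are those of the 3 genes with the smallest p-values at 42 µM among the genes that had an entry. The sequences are from RefSeq (GRCh38.p14), run 5′ to 3′ on the gene's strand and cover 250 bases before the annotated start and 50 after it. Capitals mark a CCAAT box, here read on the opposite strand, in PSME3 (chr17:42833147-42833446, plus strand). In PSMD12 (chr17:67366528-67366827, minus strand) and PSMD1 (chr2:231056617-231056916, plus strand) they mark the core of an antioxidant response element.
PSME3: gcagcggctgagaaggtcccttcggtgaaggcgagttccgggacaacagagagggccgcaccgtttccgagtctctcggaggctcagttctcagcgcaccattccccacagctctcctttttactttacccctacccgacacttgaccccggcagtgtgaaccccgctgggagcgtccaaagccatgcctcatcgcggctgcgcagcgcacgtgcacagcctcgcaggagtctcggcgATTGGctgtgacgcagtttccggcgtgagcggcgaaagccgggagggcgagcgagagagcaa
PSMD12: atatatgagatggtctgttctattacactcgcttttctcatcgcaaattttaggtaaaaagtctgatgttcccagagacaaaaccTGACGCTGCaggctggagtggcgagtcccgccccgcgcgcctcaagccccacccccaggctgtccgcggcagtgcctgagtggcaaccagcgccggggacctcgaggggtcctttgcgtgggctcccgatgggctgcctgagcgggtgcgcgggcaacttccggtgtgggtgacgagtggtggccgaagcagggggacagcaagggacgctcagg
PSMD1: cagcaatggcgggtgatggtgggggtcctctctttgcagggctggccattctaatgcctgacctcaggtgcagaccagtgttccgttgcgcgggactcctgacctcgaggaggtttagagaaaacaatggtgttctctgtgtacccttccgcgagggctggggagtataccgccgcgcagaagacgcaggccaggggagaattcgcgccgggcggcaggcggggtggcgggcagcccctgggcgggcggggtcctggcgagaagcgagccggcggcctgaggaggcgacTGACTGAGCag

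Of the 46 class genes on the array, tested or not, 40 had a promoter entry, and PSMB6 is among those without. The antioxidant response element core, searched as TGACNNNGC on both strands, was in 13 of the 40 windows (32.5%), against 13.3% of all 35114 promoters. It was in 4 of 5 assembly chaperones with an entry, 3 of 5 regulators, 4 of 16 genes of the 19S particle and 2 of 14 of the 20S core. In PSMD12 it begins at position -165 from the start, and in PSMD1 at position 40, inside the transcript. CCAAT was in 18 of 40 (45%), against 34.6% of all promoters, and the ATF4 element core TGATGNAA in 1, that of PSMF1, against 3.62%. None of the 3 motifs contains another, and a match describes these windows only.

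At 42 µM most proteasome genes read lower than on DMSO by a small amount, and PSME3 was the single one that fell past both limits. A gene is called here when its adjusted p (limma, Benjamini-Hochberg over 33467 probes) is below 0.05 and its log2 fold change is at least 0.6 in size. By this rule 1 of the 45 genes was called lower (2.22%), against 1.42% of all 24168 genes tested, and 0 were called higher, against 1.58% of all. The log2 fold change was below 0 in 40 of 45 genes (88.9%), against 54.3% of all genes. Its median was -0.26, against -0.02 over all genes and -0.01 over the 5285 genes with a mean log2 level of at least 10. On the adjusted p alone 2 of 45 were lower (4.44%), against 1.66% of all genes, and 0 higher, against 1.8%. On an unadjusted p below 0.05, 13 of 45 genes were lower (28.9%), against 7.71% of all genes, and 0 were higher, against 8.35%. For 14 of 45 (31.1%), all 4 arrays at 42 µM lay below all 4 DMSO arrays, against 7.02% of all genes. The reverse held for 0 of 45, against 5.94%. In bulk RNA, fewer cells that express a gene and less RNA per cell cannot be told apart.

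**Figure D1:**
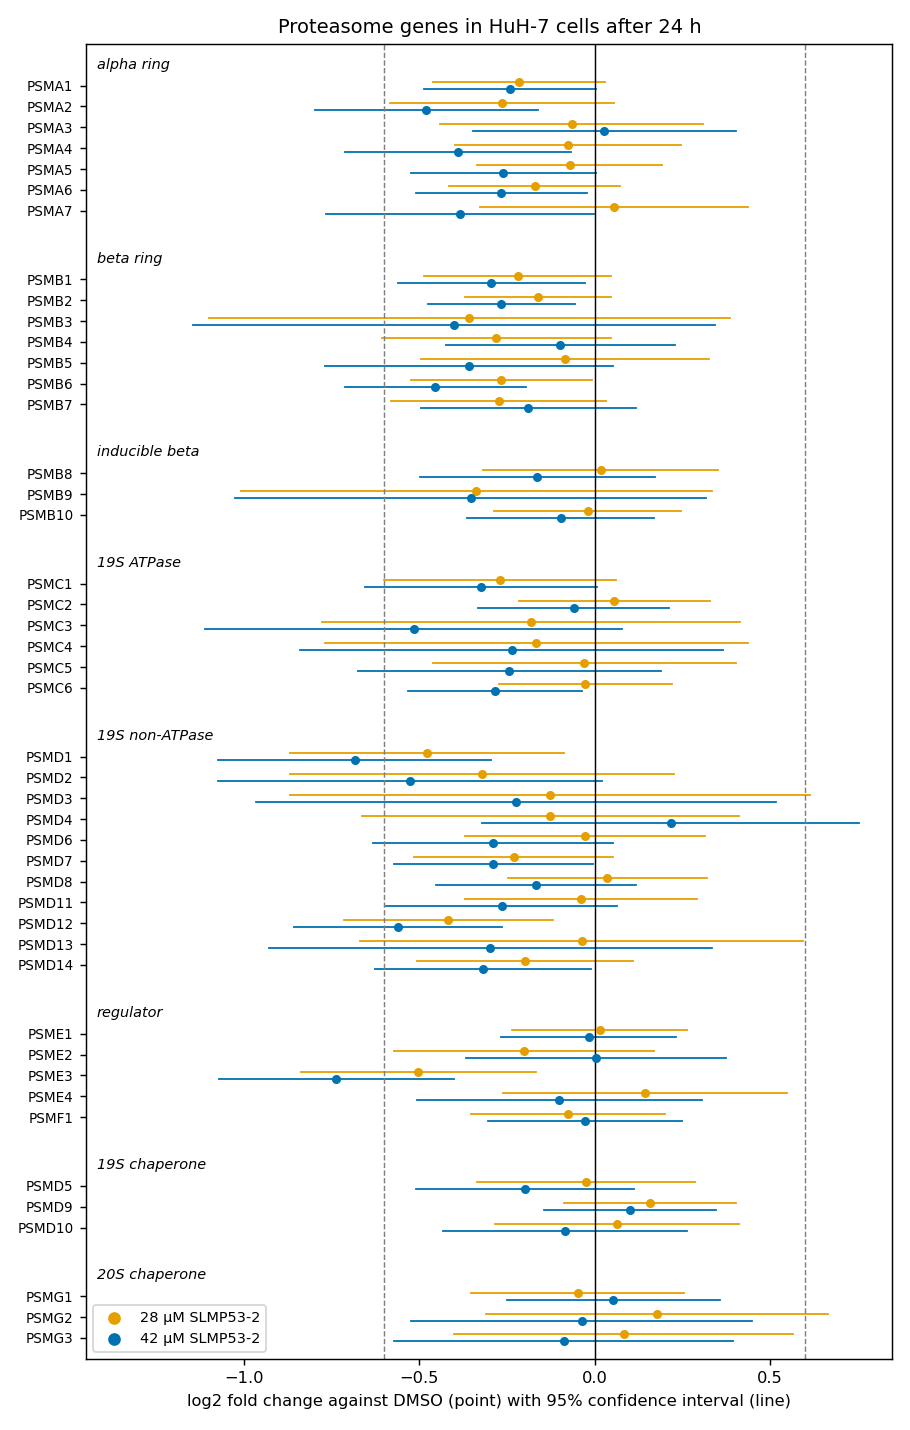
Log2 fold change against DMSO (x axis) of each of the 45 proteasome genes (y axis, by class) at 28 µM (orange) and 42 µM (blue), with lines for the 95% confidence interval of the limma fit and dashed lines at a log2 fold change of 0.6 in either direction. At 42 µM 40 of 45 points lie left of 0, and the regulators other than PSME3 and the chaperones lie near 0.

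By class, and as a description without a test, the median log2 fold change at 42 µM was -0.27 in the 20S core, with 16 of 17 genes below 0, and -0.29 in the 19S particle, also with 16 of 17. It was -0.03 in the 5 regulators and -0.06 in the 6 assembly chaperones. Within the core it was -0.27 in the 7 alpha subunits, -0.29 in the 7 standard beta subunits and -0.16 in the 3 inducible beta subunits. At 28 µM the medians were -0.17 in the 20S core, -0.13 in the 19S particle, -0.08 in the regulators and 0.07 in the assembly chaperones. The 28 µM median of the 19S particle changed sign with the arrays included, from -0.28 without 28 µM replicate 4 to 0.04 without 28 µM replicate 1. That of the 20S core ran from -0.24 to -0.11 and that of the regulators from -0.16 to -0.0087 when 1 array was left out. The median of the chaperones changed sign too, to -0.0041 at 28 µM without 28 µM replicate 4 and to 0.06 at 42 µM without 42 µM replicate 1. Both doses were set against the same DMSO arrays.

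**Figure D2:**
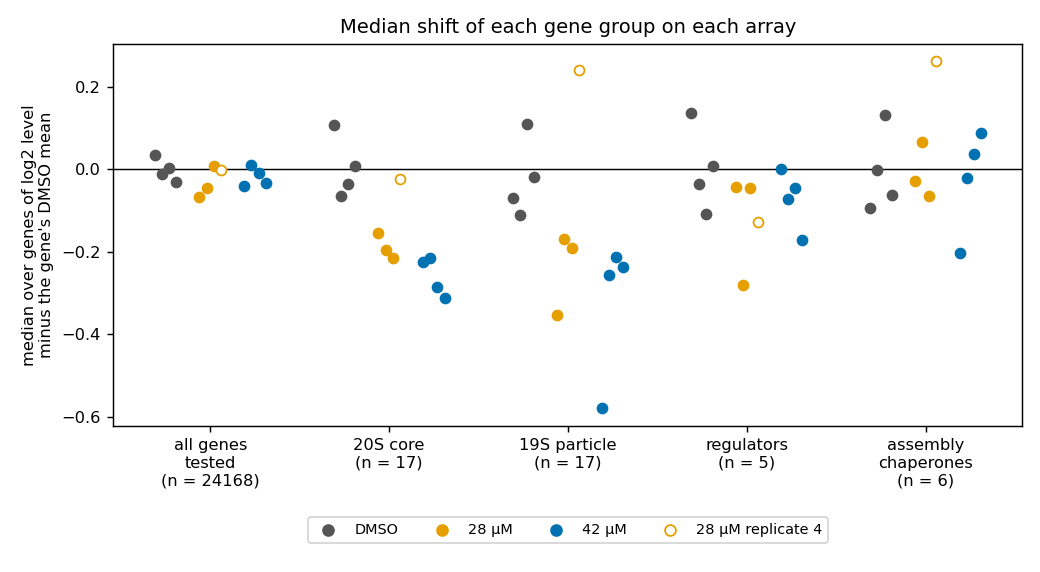
Each point is 1 array: the median over the genes of a group of the log2 level minus the gene's DMSO mean (y axis), for all genes tested and for 4 classes of proteasome genes (x axis), coloured by treatment. The 42 µM arrays lie below all DMSO arrays for the 20S core and the 19S particle, and 28 µM replicate 4 (open) lies among or above the DMSO arrays for both.

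The same was read array by array, as the median over all 45 genes of the log2 level minus the DMSO mean. The 4 DMSO arrays gave 0.04, -0.06, 0.02 and 0.01. The 42 µM arrays gave -0.35, -0.19, -0.21 and -0.24. The 28 µM arrays gave -0.19, -0.17, -0.18 and, on replicate 4, 0.14. All 42 µM arrays and 3 of the 28 µM arrays were thus below every DMSO array, and 28 µM replicate 4 was above every DMSO array. On the 3 slides that held both groups, 42 µM against DMSO gave -0.28, -0.26 and -0.10. On the 3 slides that held 28 µM and DMSO it gave -0.21, -0.16 and, on the slide of replicate 4, 0.13. By class, the slides with 42 µM and DMSO gave, in the same order, -0.23, -0.26 and -0.22 for the 20S core. For the 19S particle they gave -0.55, -0.42 and -0.08, and for the assembly chaperones -0.32, -0.14 and 0.06. The regulators gave -0.15, 0.0025 and -0.06.

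PSME3 encodes REG gamma, a cap of the nuclear core that degrades proteins without ubiquitin. Its brightest probe lies at chr17:40995600-40995659 (hg19, as the files give it). It read 11.55, 11.18, 11.31 and 11.15 on DMSO, 10.62, 10.51, 10.88 and 11.17 at 28 µM, and 10.45, 10.39, 10.77 and 10.64 at 42 µM. All 42 µM arrays lay below all DMSO arrays, and at 28 µM replicate 4 alone reached the DMSO values. The log2 fold change was -0.74 at 42 µM (SE 0.16, limma adjusted p = 0.0253), which is 1.67-fold lower. At 28 µM it was -0.50 (SE 0.16, limma adjusted p = 0.253). A slide block put the value at 42 µM at -0.66 with limma adjusted p = 0.0918, and within the 3 slides it was -0.70, -0.92 and -0.41. Leaving out any of the 4 DMSO arrays, or 42 µM replicate 1 or 2, gave -0.65 to -0.79 and ended the call. In these settings the calls over all genes tested also fell, from 724 to between 0 and 402.

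The other probes of PSME3 read differently. The next brightest (chr17:40994997-40995056) gave 10.57, 10.69, 11.09 and 11.21 on DMSO and 9.97, 10.81, 10.79 and 10.90 at 42 µM. These groups overlap, and the change was -0.27 (95% confidence interval -0.88 to 0.34). The dimmest (chr17:40986540-40986793), upstream of both in the gene, gave 6.78, 7.64, 6.87 and 7.25 on DMSO and 7.57, 7.18, 7.24 and 7.19 at 42 µM, a change of 0.16 (-0.31 to 0.64). The call and the separation from DMSO thus stood on 1 of 3 probes of this gene. The interval of the next brightest probe includes the -0.74 of the brightest, and that of the dimmest does not.

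**Figure D3:**
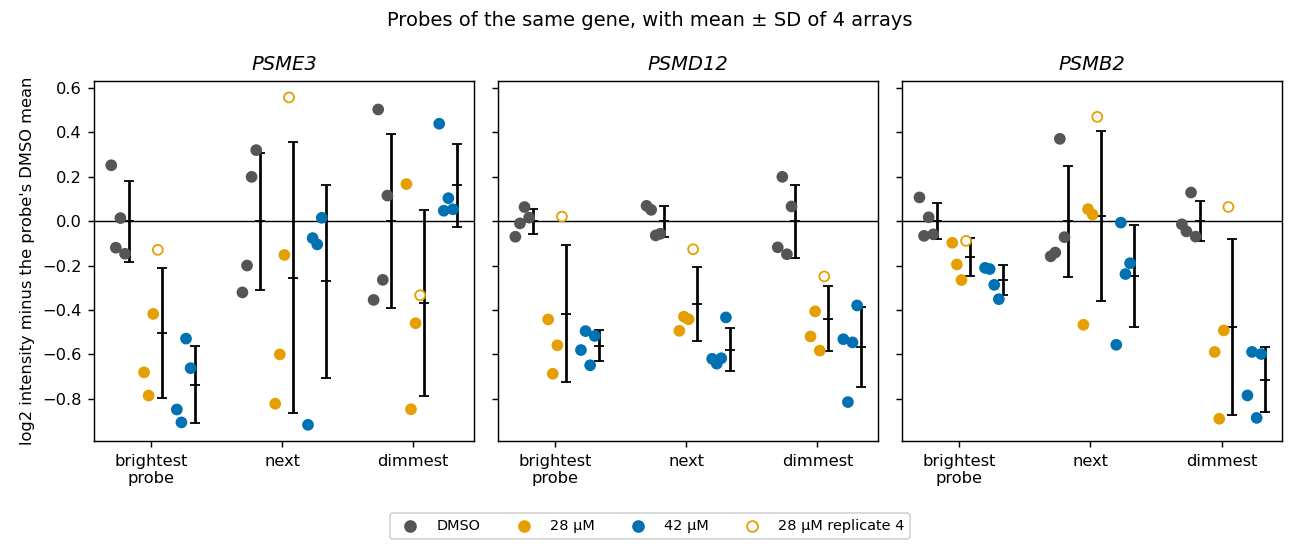
Log2 intensity minus the probe's DMSO mean (y axis) on each array for the 3 probes of PSME3, PSMD12 and PSMB2 (x axis), with mean ± SD of 4 arrays (black) and 28 µM replicate 4 open. The 3 probes of PSMD12 move alike at 42 µM (-0.56 to -0.58), while those of PSME3 run from -0.74 to 0.16 and those of PSMB2 from -0.71 to -0.25.

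In the 19S particle, PSMD12 and PSMD1 had the smallest p-values. PSMD12 is a scaffold subunit of the lid, and its brightest probe lies at chr17:65337126-65338318. It read 11.61, 11.67, 11.74 and 11.70 on DMSO, 11.24, 10.99, 11.12 and 11.70 at 28 µM, and 11.10, 11.19, 11.03 and 11.16 at 42 µM. The 42 µM arrays lay close together below DMSO, and so did the 28 µM arrays other than replicate 4. At 42 µM the change was -0.56 (SE 0.14, limma adjusted p = 0.0450), past the test and short of the fold limit. Its other probes, at chr17:65337106-65337165 and chr17:65334319-65334378, gave -0.58 and -0.57 with limma adjusted p = 0.0172 and 0.0322. The former overlaps in position with the brightest probe. Within the 3 slides the brightest probe gave -0.60, -0.56 and -0.64. A slide block in limma gave an adjusted p = 0.0907.

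PSMD1, the largest subunit of the base and a docking site for ubiquitin receptors, is read by a probe at chr2:232037369-232037428. It was at 13.83, 13.71, 13.90 and 13.74 on DMSO, 13.44, 12.81, 13.17 and 13.86 at 28 µM, and 13.16, 12.92, 13.27 and 13.09 at 42 µM. The 42 µM arrays did not overlap with DMSO, and 28 µM replicate 4 again lay with DMSO. The change at 42 µM was -0.68 (SE 0.18, limma adjusted p = 0.0608), just outside the threshold, and its second probe gave -0.62 (SE 0.24). Within the slides it was -0.58, -0.98 and -0.44. The 28 µM arrays enter the shared estimate of the spread. Without 28 µM replicate 2 or replicate 4, PSMD1 was called at 42 µM as well (limma adjusted p = 0.0262 and 0.0135). In those settings 757 and 992 of all genes tested were called at 42 µM, against 724 with all arrays.

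The rest of the 19S particle moved less. Besides PSMD12 and PSMD1, the deubiquitinase PSMD14, which cuts the ubiquitin chain off, had all 42 µM arrays (14.13, 14.25, 14.12 and 14.24) below DMSO (14.42, 14.53, 14.58 and 14.48), with limma adjusted p = 0.303. Among the ATPases the same held for PSMC1 and PSMC6. PSMC6 read 13.21, 13.15, 13.13 and 13.06 on DMSO and 12.94, 12.71, 12.87 and 12.90 at 42 µM, a change of -0.28 (-0.53 to -0.04). The lowest change of an ATPase was that of PSMC3, -0.52, with a wide interval (-1.11 to 0.08) since its 42 µM arrays ran from 11.16 to 12.04. The highest was PSMC2, -0.06 (-0.33 to 0.21). PSMD2, a scaffold of the base, gave -0.53 (-1.07 to 0.02). PSMD4, a ubiquitin receptor, was the single gene of the 19S particle above 0 at 42 µM. Its brightest probe gave 0.22 (-0.32 to 0.75) and its other probe -0.13.

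**Figure D4:**
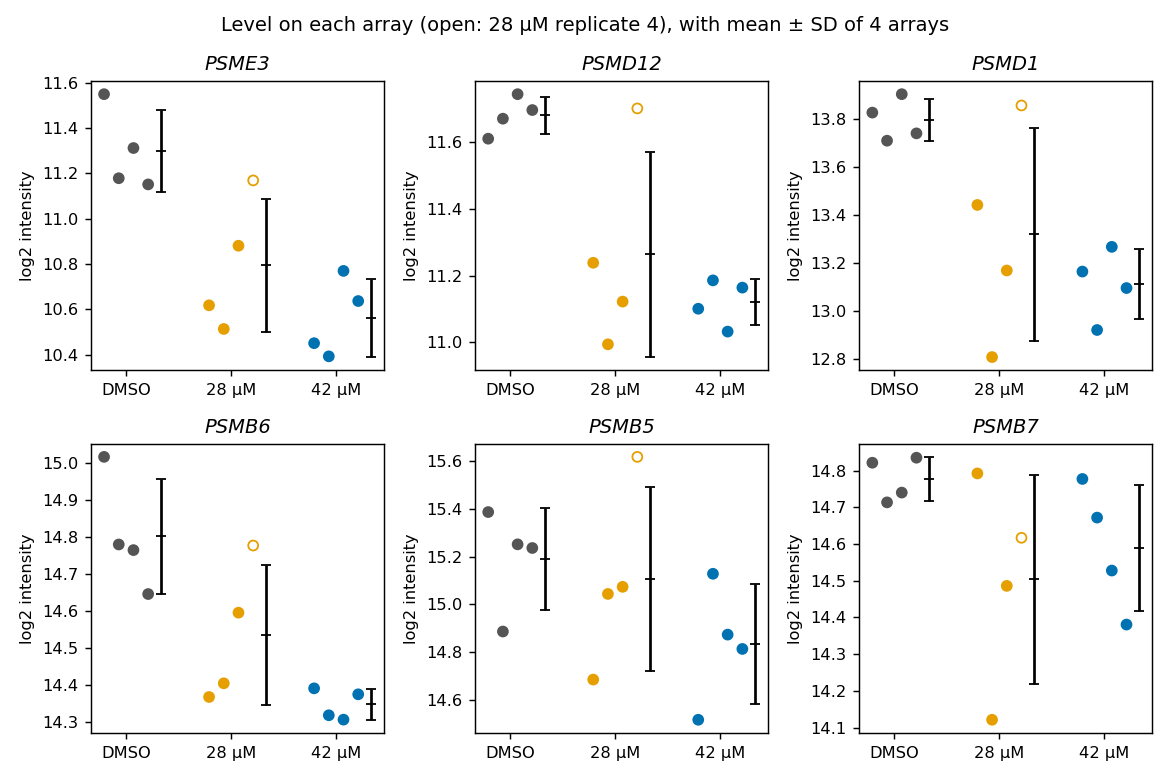
Log2 intensity (y axis, a separate scale for each gene) on each array of DMSO, 28 µM and 42 µM SLMP53-2 (x axis) for PSME3, PSMD12, PSMD1 and the catalytic subunits PSMB6, PSMB5 and PSMB7, with mean ± SD of 4 arrays. For the first 4 genes all 42 µM arrays lie below all DMSO arrays, and 28 µM replicate 4 (open) lies at the DMSO level.

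The 3 standard catalytic subunits differed in how they separated from DMSO. PSMB6, the caspase-like site, has its probe at chr17:4701404-4701589. It read 15.02, 14.78, 14.77 and 14.65 on DMSO, 14.37, 14.41, 14.60 and 14.78 at 28 µM, and 14.39, 14.32, 14.31 and 14.38 at 42 µM. The 42 µM arrays agreed closely and lay below DMSO, with a change of -0.45 (SE 0.12, limma adjusted p = 0.0600) and, within the slides, -0.25, -0.45 and -0.47. PSMB5, the chymotrypsin-like site that proteasome inhibitor drugs bind, read 15.39, 14.89, 15.25 and 15.24 on DMSO and 14.52, 15.13, 14.87 and 14.81 at 42 µM. Its groups overlap, and the change was -0.36 (-0.77 to 0.05). PSMB7, the trypsin-like site, read 14.82, 14.71, 14.74 and 14.84 on DMSO and 14.78, 14.67, 14.53 and 14.38 at 42 µM, a change of -0.19 (-0.50 to 0.12).

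The inducible subunits replace these 3 in the immunoproteasome after interferon. PSMB10 read 12.63, 12.47, 12.35 and 12.48 on DMSO and 12.40, 12.35, 12.50 and 12.28 at 42 µM, with a change of -0.10 (-0.36 to 0.17). PSMB9 ranged from 8.44 to 9.72 on DMSO and from 7.93 to 9.12 at 42 µM, so that its change of -0.35 has an interval from -1.03 to 0.32. PSMB8 ranged from 6.24 to 6.69 and from 5.90 to 6.51, with a change of -0.16 (-0.50 to 0.17). None of the 3 groups of 42 µM arrays separated from DMSO. Of 15 tested genes of interferon and antigen processing, 0 were called at 42 µM in limma. Over all genes 1.58% were called higher and 1.42% lower. At 28 µM 0 of the 15 were called, against 0% of all genes. At these shares, 0 of 15 does not set the list apart. The median of the 15 at 42 µM was 0.03. On an unadjusted p below 0.05 at 42 µM, 1 of the 15 was lower (IFI30), against 7.71% of all genes, and 0 higher, against 8.35%.

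Of the other beta subunits, PSMB1, PSMB2 and PSMB3 also had all 42 µM arrays below DMSO, with changes of -0.29, -0.27 and -0.40. PSMB3 had the widest spread, with 28 µM arrays from 10.58 to 12.74 and an interval at 42 µM from -1.15 to 0.34. A dim second probe of PSMB2 (chr1:36066371-36066430) gave -0.71 with limma adjusted p = 0.0393, past both limits, where the brightest probe gave -0.27 (SE 0.10). PSMB4 had the smallest change of the standard beta subunits, -0.10 (-0.42 to 0.23).

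Of the 7 alpha subunits, PSMA1, PSMA2, PSMA4 and PSMA6 had all 42 µM arrays below DMSO. PSMA2 read 13.50, 13.38, 13.20 and 13.48 on DMSO, 13.20, 12.88, 13.08 and 13.35 at 28 µM, and 13.02, 12.51, 13.03 and 13.08 at 42 µM. Its change at 42 µM was -0.48 (SE 0.15, limma adjusted p = 0.107), the lowest of the ring. PSMA4 followed with -0.39 (SE 0.15), from 14.30 to 14.49 on DMSO and 13.82 to 14.17 at 42 µM. PSMA3 was the single alpha subunit above 0, at 0.03 (-0.35 to 0.40), with DMSO arrays from 12.90 to 13.41 and 42 µM arrays from 12.90 to 13.44.

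The regulators other than PSME3 lay near 0 at 42 µM. PSME1 and PSME2 form the interferon-inducible 11S cap. PSME1 changed by -0.02 (-0.27 to 0.23) and PSME2 by 0.00 (-0.37 to 0.37), with PSME2 at 13.46, 14.20, 13.72 and 14.13 on DMSO and 13.99, 13.72, 13.83 and 13.99 at 42 µM. A dim second probe of PSME1 gave -0.34 (-0.63 to -0.05, limma adjusted p = 0.234). PSME4, the PA200 activator of nuclei, gave -0.10 (-0.51 to 0.31). PSMF1, an inhibitor of the core, gave -0.03 (-0.30 to 0.25). Changes of the size seen for PSMD12 thus lie outside the intervals of the brightest probes of PSME1, PSME2, PSME4 and PSMF1, but not of the second probe of PSME1.

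The assembly chaperones, which are not part of the finished particle, were also close to DMSO. PSMD5, PSMD9 and PSMD10 guide the assembly of the ATPase ring, and at 42 µM they gave -0.20 (-0.51 to 0.11), 0.10 (-0.14 to 0.35) and -0.08 (-0.43 to 0.26). PSMD9 read 11.67, 11.45, 11.66 and 11.45 on DMSO and 11.78, 11.63, 11.64 and 11.59 at 42 µM. PSMG1, PSMG2 and PSMG3 guide the assembly of the core. PSMG1 gave 0.05 (-0.25 to 0.36), PSMG2 -0.04 and PSMG3 -0.09 (-0.57 to 0.40).

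At 28 µM 0 of 45 genes were called in either direction, against 0% of all 24168 genes. On an unadjusted p below 0.05, 4 genes were lower (PSME3, PSMD12, PSMD1 and PSMB6, 8.89% against 6.29% of all genes) and 0 were higher, against 5.59%. The change was below 0 in 35 of 45 genes (77.8%), against 54.6% of all genes, with a median of -0.09 against -0.02. PSMB2 alone had all 28 µM arrays below DMSO (2.22%, against 2.93% of all genes), and 0 of 45 had all above it, against 2.79%. The array of 28 µM replicate 4 was singled out on the median of these same genes, so values without it are not independent of that choice. Without replicate 4 the median was -0.19, and PSMD1 (-0.66, limma adjusted p = 0.0408) and PSME3 (-0.63, limma adjusted p = 0.0436) were called lower. In that setting 587 of all 24168 genes were called in either direction, against 0 with all arrays. The change was then below 0 in 40 of 45 genes, against 55.5% of all genes. Without replicate 1 the median was instead -0.034, with 25 of 45 genes below 0 against 52.4% of all genes, and without DMSO replicate 2 it was -0.14. Leaving out any array other than 28 µM replicate 4 gave 0 calls among the 45 genes at 28 µM. PSME3, PSMD12, PSMD1 and PSMB6, side by side at 28 and 42 µM, gave -0.50 and -0.74 for PSME3, -0.42 and -0.56 for PSMD12, -0.48 and -0.68 for PSMD1, and -0.27 and -0.45 for PSMB6.

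Set directly against 28 µM, the 42 µM arrays gave no call among the 45 genes in limma, against 0% of all genes. On an unadjusted p below 0.05, 2 were lower (4.44%, against 1.46% of all genes) and 0 higher (1.11%). They were PSMA7, an alpha subunit (-0.44, 95% confidence interval -0.82 to -0.06), and PSMC6 (-0.26, -0.51 to -0.01). PSMA7 read 13.52, 14.00, 14.01 and 14.37 at 28 µM and 13.34, 13.76, 13.35 and 13.69 at 42 µM, which overlap. The change was below 0 in 38 of 45 genes (84.4%), against 45.3% of all genes, and above 0 in the others, against 54.7%. The groups of 4 arrays separated for 0 of 45 genes, against 0.923% of all genes lower and 0.687% higher. The median over the 45 genes was -0.14 between the doses and -0.029 without 28 µM replicate 4. On the 3 slides that held both doses it was -0.13, 0.04 and, on the slide of that array, -0.42. For PSME3, PSMD12, PSMD1 and PSMB6 the interval of the difference between the doses included 0, from -0.57 to 0.10 for PSME3, -0.44 to 0.15 for PSMD12, -0.60 to 0.18 for PSMD1 and -0.45 to 0.07 for PSMB6.

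Among 15 tested genes that control, assemble or assist the proteasome, 2 were called higher at 42 µM (13.3%, against 1.58% of all genes). In the other direction 0 were called lower, against 1.42% of all genes. On sign alone, 53.3% of the 15 were below 0 at 42 µM, against 54.3% of all genes. NFE2L1, the transcription factor of the subunit genes, read 11.25, 11.38, 11.51 and 11.72 on DMSO, 12.05, 12.23, 12.06 and 11.72 at 28 µM, and 12.45, 12.74, 12.36 and 12.05 at 42 µM. All 42 µM arrays exceeded DMSO, by 0.93 on average (SE 0.16, limma adjusted p = 0.0151), and by 0.73, 1.23 and 0.98 within the slides. ZFAND2A (AIRAP), a stress-induced protein that associates with the 19S particle, read 10.78, 10.62, 10.60 and 10.66 on DMSO, 11.15, 11.46, 11.30 and 10.97 at 28 µM, and 11.55, 11.48, 11.23 and 11.17 at 42 µM. Its 8 treated arrays all exceeded DMSO, with changes of 0.56 at 28 µM (limma adjusted p = 0.183) and 0.69 at 42 µM (SE 0.13, limma adjusted p = 0.0166). A slide block in limma gave, at 42 µM, an adjusted p of 0.0636 for NFE2L1 and 0.0655 for ZFAND2A. Without 28 µM replicate 4, ZFAND2A was called at 28 µM (0.64, limma adjusted p = 0.0243) and NFE2L1 was not (0.65, limma adjusted p = 0.0639). Over all genes tested, 587 were called at 28 µM in that setting, against 0 with all arrays. Without DMSO replicate 2 or 42 µM replicate 2 neither was called at 42 µM, with changes of 0.65 to 0.90. In both of these settings 0 of all genes tested were called at 42 µM, against 724 with all arrays.

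**Figure D5:**
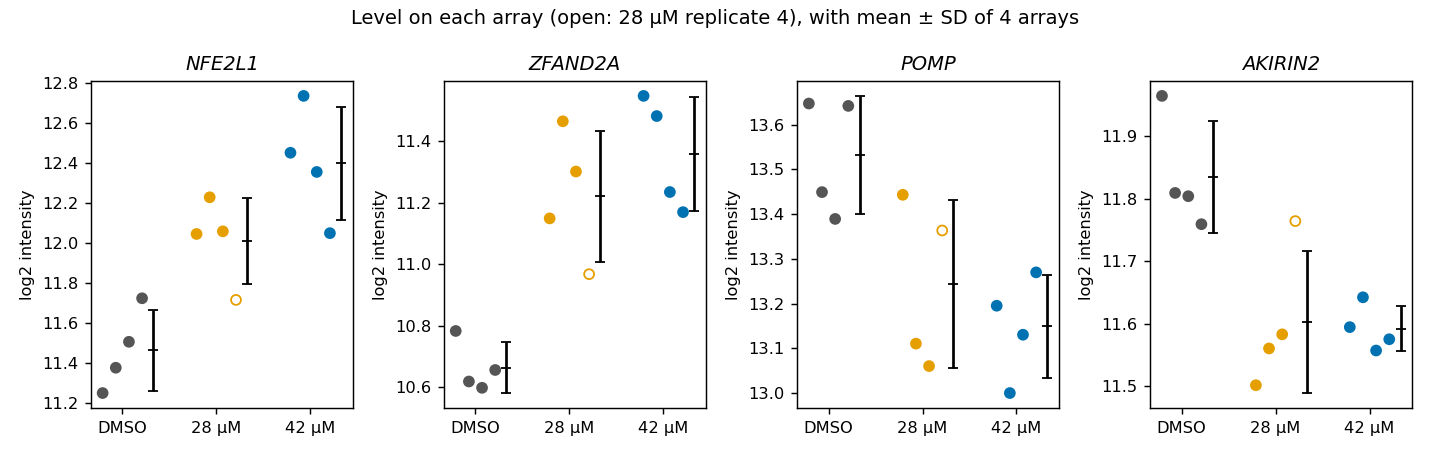
Log2 intensity (y axis, a separate scale for each gene) on each array of DMSO, 28 µM and 42 µM SLMP53-2 (x axis) for 4 genes that control or assist the proteasome, with mean ± SD of 4 arrays and 28 µM replicate 4 open. All 42 µM arrays lie above all DMSO arrays for NFE2L1 and ZFAND2A and below them for POMP and AKIRIN2.

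POMP, which matures the 20S core, and AKIRIN2, an adaptor that carries proteasomes into the nucleus, lay on the other side of DMSO. POMP read 13.65, 13.45, 13.39 and 13.64 on DMSO and 13.20, 13.00, 13.13 and 13.27 at 42 µM, a change of -0.38 (SE 0.12, limma adjusted p = 0.117). AKIRIN2 read 11.96, 11.81, 11.80 and 11.76 on DMSO and 11.59, 11.64, 11.56 and 11.57 at 42 µM, a change of -0.24 (SE 0.10, limma adjusted p = 0.249). NFE2L2, the relative of NFE2L1 that responds to oxidants, gave -0.11 (SE 0.14). Of 17 tested genes for ubiquitin, its activation and its shuttle factors, 0 were called at 42 µM in limma. Over all genes 1.58% were called higher and 1.42% lower. At 28 µM 0 of the 17 were called, against 0% of all genes. At these shares, 0 of 17 does not set the list apart. On an unadjusted p below 0.05 at 42 µM, 3 of the 17 were lower (UBQLN2, NSFL1C and VCP, 17.6%, against 7.71% of all genes) and 0 higher, against 8.35%. The median of the 17 was -0.06.

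Probes of the same gene did not always agree. Of 17 class genes with several tested probes, 6 had probes on both sides of 0 at 42 µM (PSMD3, PSMD4, PSMD9, PSME3, PSMF1 and PSMG2), and the difference between the highest and lowest probe had a median of 0.14. PSME3 had the largest difference, 0.90. Of the names matched by pattern only, PSMD5-AS1, a transcript named as antisense to PSMD5, read 9.93, 9.73, 10.10 and 9.45 on DMSO and 10.50, 10.71, 10.40 and 9.85 at 42 µM, a change of 0.56 (0.09 to 1.04, limma adjusted p = 0.220). PSMC3IP, PSMA3-AS1 and PSMG3-AS1 gave -0.38, -0.09 and -0.08, with limma adjusted p = 0.564 or higher.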

How the data were processed

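Each array's deposited file is Agilent Feature Extraction output (10.7.3.1 in the submitters' notes and the headers), with a mean intensity, a local background intensity and a processed signal per spot. A deposited table of log2 values, which the authors made by Edwards background correction followed by quantile normalization, served as an alternative. The same steps were repeated here on the mean and background intensities without outlier spots. Replicate spots were averaged, and a probe stayed if it was well above background on at least 2 arrays of any group. Quantile normalization gives all arrays the same distribution, so a shift of all RNA cannot be seen. The 3 groups were fitted in 1 model with limma 3.58.1 (R 4.3.3; lmFit and eBayes, two-sided), with Benjamini-Hochberg adjustment over 33467 probes. Intervals are 95% confidence intervals of that fit. Promoters were searched in Python 3.11.15. The fit was tested on simulated data. The number of arrays limits the precision. Probe positions are hg19, as in the files, and exons were not analysed here. Of the 76 probes, 73 matched a RefSeq accession.

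The members and lists were chosen with earlier results of these data known. Genes were named if called in any comparison, highest or lowest of their class at 42 µM, catalytic, or among the 3 smallest p-values of a comparison. Further genes and probes were named after their values were seen: those whose 42 µM and DMSO arrays did not overlap, PSMD2, the remaining regulators and chaperones, and second probes. Samples were grouped by their titles. Alternatives were other background corrections, signals, scalings, filters, blocks and limits, and leaving out each array.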

Additional observations from a re-analysis of the deposited data

Results flagged for a closer look

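In 90 tests for a lone array within a group of 4, of which chance flags about 1 in 20, 4 arrays stood apart. PSMA2 at 42 µM read 12.51 on replicate 2 against 13.02 to 13.08 on the other arrays. PSMA3 at 28 µM read 13.51 on replicate 1 against 12.93 to 12.99. The median of all 45 proteasome genes at 28 µM, relative to the DMSO mean, was 0.14 on replicate 4 against -0.19 to -0.17 on the others. The median of the 19S particle at 42 µM was -0.58 on replicate 1 against -0.26 to -0.21 on the others. Of the gene spots, 83.4% were well above background on 28 µM replicate 4 and 71.3% on 42 µM replicate 1, and the part of detection in these values was not tested.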

How the results depend on the processing

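The 42 µM medians of all 45 genes, the 20S core and the 19S particle stayed below 0 in every alternative. For 42 µM against DMSO, 0 of the 45 genes were called lower on the processed signal with quantile normalization, with the slide as a block (which left 1 lower call among all genes) or with a 2-fold limit. The count was 2 on the processed signal scaled to the 75th percentile, with the slide as a random block, the replicate block, only the groups compared, array weights, no fold limit, an unadjusted p or every probe by itself, and 5 on Edwards values scaled to the 75th percentile. Leaving out 1 array gave 0 to 2, with 0 without any 1 of the DMSO arrays or 42 µM replicate 1 or 2. At 28 µM it gave 0 to 2, with 2 without 28 µM replicate 4. Over all genes, calls at 42 µM in either direction numbered 724 in the main fit and 363 on the processed signal with quantile normalization. Scaling to the 75th percentile gave 494 on the processed signal and 676 on Edwards values. The random slide block gave 906, only the groups compared 970, array weights 1027 and the replicate block 1106. Leaving out 1 array gave 0 to 992 at 42 µM. Replicate numbers were not used to pair the arrays in the main fit. Deviations of same-numbered arrays correlated from -0.46 to 0.62 (median 0.22), over 0.1 in 7 of 12 pairs. Those of differently numbered arrays correlated from -0.59 to 0.57 (median -0.07), over 0.1 in 11 of 36 pairs. A pairing by number was not tested further.

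Scaling to the 75th percentile (processed signal, then Edwards) lowered the medians, to -0.28 and -0.31 for all 45 genes and -0.35 and -0.36 for the 20S core at 28 µM, and at 42 µM to -0.44 and -0.41, -0.51 and -0.49, and for the regulators -0.22 and -0.22. At 42 µM it put 45 of 45 genes below 0, against 56.2% and 59.9% of all genes. It moved the median of the 5285 brighter genes to -0.13 and -0.12 at 28 µM and to -0.16 and -0.15 at 42 µM. It turned PSMA7 at 28 µM to -0.28 (processed signal), PSMC2 at 28 µM to -0.10 and -0.11, PSMD9 at 42 µM to -0.082 and -0.036, and PSMG1 at 42 µM to -0.14 and -0.17. A sign change of an uncalled value was counted only where it exceeded 1 replicate SD. Counting every probe gave -0.20 for the regulators at 28 µM. Leaving out 1 array gave medians of -0.19 to -0.034 for all 45 genes at 28 µM, -0.29 to -0.20 for them at 42 µM and -0.13 to -0.025 for the regulators at 42 µM. Between the doses it gave -0.17 to -0.029 for all 45 genes, -0.17 to -0.080 for the 20S core and -0.29 to -0.014 for the 19S particle, the last nearest 0 without 28 µM replicate 4.

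Reading the same fits for the 15 partner genes was decided after seeing the data. At 42 µM 1 was called higher under both 75th percentile scalings and 0 with the slide as a block. Leaving out 1 array gave 0 to 2, with 0 without DMSO replicate 2 or 42 µM replicate 2 and 1 without DMSO replicate 4. At 28 µM it gave 0 to 1. Over all genes tested, calls at 42 µM numbered 724 with all arrays and 266 without DMSO replicate 4. They numbered 0 without DMSO replicate 2 or 42 µM replicate 2.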
